A study of Macaca mulatta with 16 samples.

Results

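Wnt proteins are secreted ligands that bind Frizzled receptors and LRP co-receptors. In the canonical branch of the pathway, receptor engagement stabilises beta-catenin, which then partners with TCF/LEF factors on target genes. R-spondins amplify the signal by binding LGR receptors and removing the ligases that clear Frizzled from the membrane, whereas secreted antagonists bind either the ligands or the co-receptors. In the developing lung, WNT2 and R-spondin 2 are known as signals of the mesenchyme, WNT7B as a signal of the epithelium, and WNT5A as a ligand that mainly acts without beta-catenin.

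The 10 genes described here were listed under these roles and were found in the table by symbol. They were the ligands WNT2, WNT5A, WNT5B and WNT7B, the amplifier RSPO2, the transcription factor LEF1 and the feedback target AXIN2. SFRP1, WIF1 and DKK3 were listed as secreted antagonists, DKK3 by its Dickkopf family, and no antagonist activity was measured. Each symbol matched 1 rhesus Ensembl gene, and these are 10 of 22515 genes in the table. All 10 passed the filter on low counts that left 19199 genes for testing. RNA was sequenced from the fetal lungs of 16 rhesus macaques (Macaca mulatta), with 1 library per animal.

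Preterm controls (n = 4) received no intervention and were delivered at 131 to 135 days of gestation, and term controls (n = 2) received none and were delivered at 156 and 157 days. The other animals received 1 mg of intraamniotic LPS (lipopolysaccharide, the bacterial cell wall component used to model chorioamnionitis). Those of the LPS 16h group (n = 4) were delivered 16 hours later at 130 or 131 days, and those of the LPS 5d group (n = 3) were delivered 5 days later at 131 to 134 days. In the LPS + Beta-Ac 5d group (n = 3), the dams also received 0.125 mg/kg of intramuscular Beta-Ac (betamethasone acetate, a glucocorticoid used antenatally), with delivery 5 days after treatment at 131 or 132 days. All LPS-exposed animals were treated at 126 to 130 days, and no group that received Beta-Ac without LPS was analysed here.

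Library totals ran from 30596371 to 48052891 counts in the LPS 16h group and from 20169363 to 28348816 counts in the other 4 groups, without overlap, and the part of this depth difference in the results was not tested. Levels are given in CPM, the counts of a gene relative to the TMM-scaled total of its library, and they compare animals within a gene, not genes with each other. A gene is called when its adjusted p (limma, Benjamini-Hochberg over the 19199 genes) is below 0.05 and its fold change is at least 2-fold. Lung epithelial markers were present in every group, with SFTPC between 1797 and 7546 CPM and NKX2-1 between 47.2 and 165.8 CPM over the 16 animals. These are bulk samples of whole tissue, in which fewer cells of a type and less RNA per cell cannot be told apart. The 4 comparisons against preterm controls share the same 4 control animals. Over all genes, the 2 groups compared did not overlap in a given direction for 5.05% to 21% of genes, depending on the comparison.

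At 16 hours after LPS, RSPO2, DKK3 and WNT7B fell relative to preterm controls, by 3.12-fold, 3.42-fold and 2.14-fold. These were 3 of the 10 genes, and 0 were called higher, against 6.07% lower and 8.3% higher among all genes tested. By adjusted p alone, with no fold minimum, 4 of the 10 were lower and 1, WNT5B, was higher, against 19.6% lower and 18.7% higher among all genes. The median log2 fold change of the 10 genes was -0.42, and that of all genes was -0.09.

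At 5 days after LPS, LEF1 was the 1 gene of the 10 called against preterm controls, and it was 2.13-fold lower, against 2.23% of all genes called lower and 2.6% called higher. By adjusted p alone, RSPO2 was also lower, which made 2 of 10 lower and 0 higher, against 9.23% lower and 5.49% higher among all genes. After LPS + Beta-Ac, 0 of the 10 were called (2.44% lower and 4.05% higher among all genes), and limma-voom also called 0. RSPO2, LEF1 and DKK3 had an adjusted p below 0.05 in that comparison at less than 2-fold, which made 3 of 10 lower and 0 higher (10.2% lower and 7.1% higher among all genes), and 5 of the 10 had an unadjusted p below 0.05, against 30% of all genes. The medians of the 10 log2 fold changes were -0.46 after LPS and -0.63 after LPS + Beta-Ac, and those of all genes were -0.0017 and -0.01.

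In term controls 0 of the 10 genes were called against preterm controls, whereas 0.953% of all genes were called lower and 1.11% higher. The 10 fold changes were all below 0, with a median of -0.51 on the log2 scale, against -0.0089 for all genes. Of the 10, 5 had an unadjusted p below 0.05, against 18.9% of all genes, while limma-voom called 0. The direct comparison of the LPS groups at 16 hours and 5 days called WNT5B higher at 16 hours and WNT7B and DKK3 lower, against 8.02% of all genes called higher and 6.61% lower. By adjusted p alone, WNT2, WNT5B and LEF1 were higher at 16 hours and WNT7B, RSPO2, AXIN2 and DKK3 lower, which made 7 of 10, against 19.4% higher and 15.6% lower among all genes.

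No gene of the 10 was called between LPS + Beta-Ac and LPS alone at 5 days, where 0.104% of all genes were called higher and 0% lower. LEF1 and SFRP1, 2 of the 10, had an unadjusted p below 0.05 in that comparison, against 4.82% of all genes, and limma-voom called 0 of the 10. Against term controls, 0 of the 10 were called for LPS at 5 days (0.0313% of all genes higher and 0.0313% lower) and 0 for LPS + Beta-Ac (0.375% higher and 0.193% lower). The unadjusted p was below 0.05 for 3 of the 10 in the former comparison (11% of all genes) and for 1 in the latter (14.4% of all genes), and limma-voom called 0 in both.

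**Figure D1:**
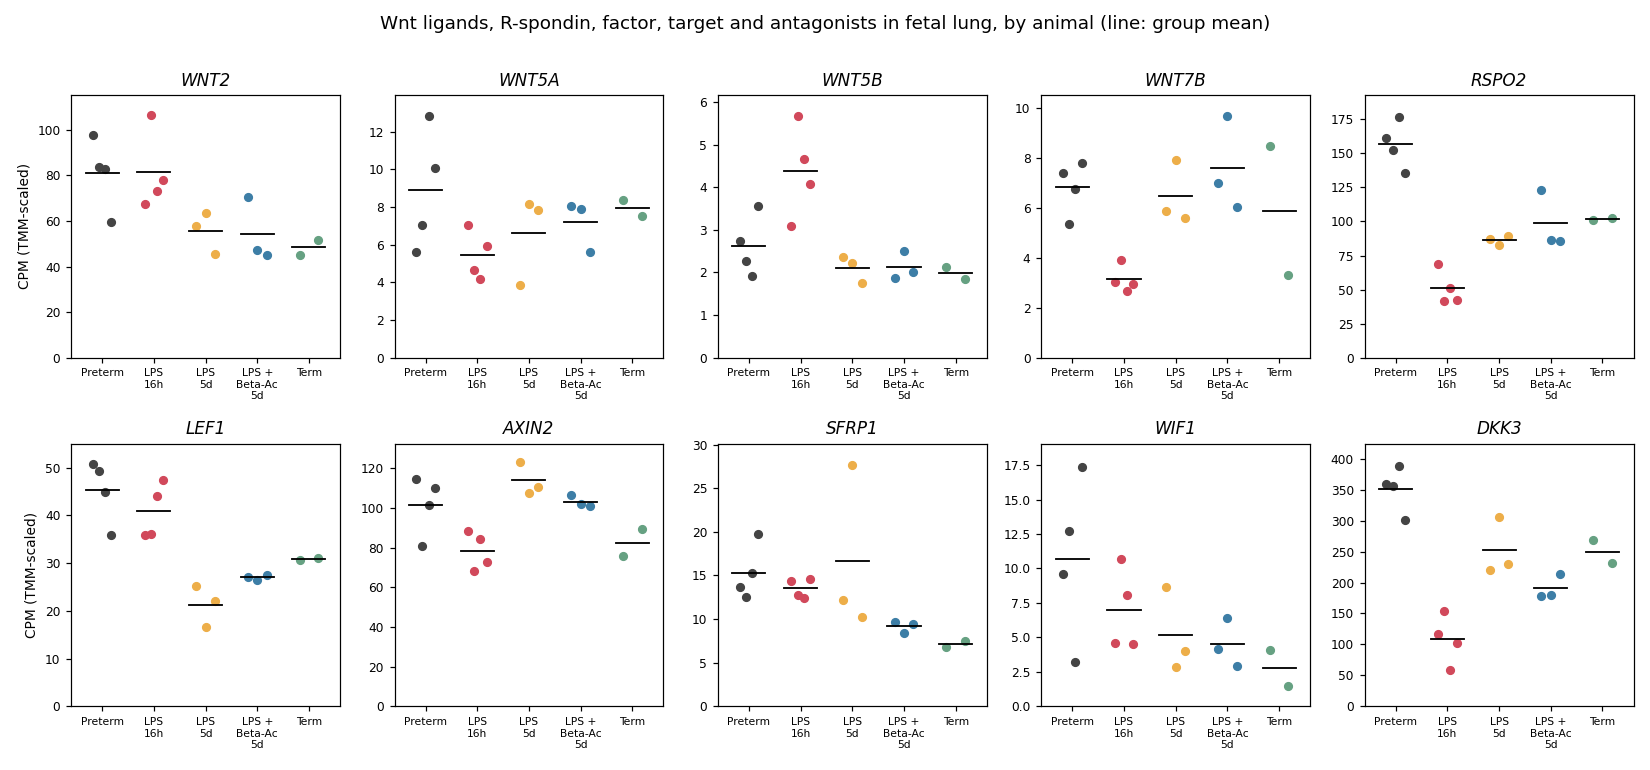
TMM-scaled CPM (linear axes from 0) of the 10 genes in each of the 16 animals, with 1 point per animal, colours for the 5 groups and a line at each group mean. RSPO2 and DKK3 were lower in all 4 LPS 16h animals than in any other animal, and LEF1 was lower in all 3 LPS 5d animals than in any animal of the other 4 groups.

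WNT2 (ENSMMUG00000055123), a mesenchymal ligand known for its part in specifying the lung, was measured at 97.8, 83.6, 83.1 and 59.4 CPM in the preterm controls. The LPS 16h animals held 67.3, 106.8, 73.3 and 77.9 CPM, within and just above the preterm range. The 3 LPS 5d animals had 57.7, 63.4 and 45.5 CPM, the 3 LPS + Beta-Ac animals 70.5, 47.2 and 45.0 CPM, and the 2 term controls 45.3 and 51.7 CPM. The preterm and LPS 16h animals sat above most animals of the other 3 groups. The preterm controls overlapped both 5-day groups and did not overlap the term controls.

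Relative to preterm controls, the log2 fold change of WNT2 was -0.53 at 5 days after LPS (SE 0.20, adjusted p = 0.092), -0.58 after LPS + Beta-Ac (SE 0.20, adjusted p = 0.060) and -0.72 at term (SE 0.23, adjusted p = 0.095). None of the 3 passed. Preterm control 209 held the lowest preterm value, and without it the adjusted p of WNT2 was 0.032, 0.020 and 0.033 in these comparisons, all still under 2-fold. Between LPS at 16 hours and at 5 days the difference was 0.54 (SE 0.20, adjusted p = 0.0495), and it passed 0.05 or missed it depending on the alternative, with adjusted p values from 0.038 to 0.20.

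WNT5A (ENSMMUG00000061281), the prototype of the ligands that act without beta-catenin, was not called in any comparison. Preterm controls held 5.62, 7.07, 12.8 and 10.1 CPM and the LPS 16h animals 7.07, 4.64, 4.15 and 5.90 CPM. The levels were 3.85, 8.17 and 7.83 CPM at 5 days after LPS, 8.06, 7.89 and 5.63 CPM after LPS + Beta-Ac, and 8.38 and 7.50 CPM at term. Every pair of these groups overlapped except the term controls and the LPS 16h animals. The fold change at 16 hours, -0.66 on the log2 scale (SE 0.28), did not pass the test (adjusted p = 0.078).

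WNT5B (ENSMMUG00000001325), a close relative of WNT5A, was a low count gene, with 37 to 213 reads per library. The LPS 16h animals held 3.09, 5.68, 4.66 and 4.07 CPM, whereas the preterm controls held 2.75, 2.27, 1.92 and 3.57 CPM. The LPS 5d animals held 2.36, 2.23 and 1.76 CPM, the LPS + Beta-Ac animals 1.88, 2.50 and 2.00 CPM, and the term controls 2.13 and 1.84 CPM. The 16-hour values thus lay above every animal of the 3 later groups, and above 3 of the 4 preterm controls.

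WNT5B rose 2.00-fold at 16 hours relative to 5 days after LPS (log2 fold change 1.00, SE 0.24, adjusted p = 0.0046), at the edge of the 2-fold minimum. The fold change was 0.82 with library totals alone and 0.87, 0.96 and 0.88 without LPS 16h animal 029, LPS 16h animal 035 or LPS 5d animal 242, each under 2-fold. Against preterm controls the log2 fold change was 0.73 (SE 0.22, adjusted p = 0.019), and the adjusted p was 0.064 without preterm control 113.

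WNT7B (ENSMMUG00000000180), an epithelial ligand known to drive growth of the distal lung, was lower at 16 hours than in any preterm or 5-day animal. Its levels were 7.41, 5.36, 6.74 and 7.78 CPM in preterm controls and 3.02, 3.92, 2.68 and 2.97 CPM in the LPS 16h group. At 5 days the values were 5.88, 7.91 and 5.60 CPM after LPS and 7.0, 9.67 and 6.05 CPM after LPS + Beta-Ac. The 2 term controls disagreed with each other, at 8.46 and 3.30 CPM, so that 1 of them lay in the 16-hour range.

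The log2 fold change of WNT7B at 16 hours was -1.10 against preterm controls (SE 0.26, adjusted p = 0.0033) and -1.02 against LPS at 5 days (SE 0.28, adjusted p = 0.0096). With days of gestation as a covariate these were -0.88 and -0.87, under 2-fold with an adjusted p of 0.026 and 0.017. The difference between 16 hours and 5 days was also under 2-fold without LPS 16h animal 035 (-0.95), LPS 16h animal 038 (-0.995) or LPS 5d animal 240 (-0.87, adjusted p = 0.054). The mean levels after LPS at 5 days, 6.46 ± 1.26 CPM (SD, n = 3), and after LPS + Beta-Ac, 7.57 ± 1.88 CPM (SD, n = 3), lay on either side of the preterm mean of 6.82 ± 1.07 CPM (SD, n = 4), with overlapping values.

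RSPO2 (ENSMMUG00000054660), a secreted amplifier of Wnt signals from the mesenchyme, was lower in every LPS-exposed and every term animal than in any preterm control. The preterm controls held 161, 153, 177 and 136 CPM. The LPS 16h animals held 68.6, 41.8, 51.2 and 42.4 CPM, the LPS 5d animals 86.9, 82.6 and 89.4 CPM, the LPS + Beta-Ac animals 123, 86.6 and 85.7 CPM, and the term controls 101 and 102 CPM. From low to high the means ran LPS 16h, LPS 5d, LPS + Beta-Ac, term and preterm, and in this order only LPS + Beta-Ac overlapped its neighbours on both sides.

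At 16 hours the log2 fold change of RSPO2 was -1.64 (SE 0.15, adjusted p = 8.81e-07), and it stayed between -1.85 and -1.53 in all 16 alternatives, called in each. At 5 days it was -0.85 after LPS (SE 0.17, adjusted p = 0.0035) and -0.68 after LPS + Beta-Ac (SE 0.17, adjusted p = 0.011), both under 2-fold. In the latter comparison the adjusted p was 0.071 without LPS + Beta-Ac animal 249 and 0.052 without LPS + Beta-Ac animal 255, and it was 0.056 with days of gestation as a covariate. The level at 16 hours was also lower than at 5 days (log2 fold change -0.79, SE 0.17, adjusted p = 0.0019). At term the fold change of -0.62 (SE 0.19) did not pass (adjusted p = 0.085). Both term animals lay below all 4 preterm controls, as they did for 15.2% of all genes.

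LEF1 (ENSMMUG00000023256), a TCF/LEF factor that binds beta-catenin and is itself a known Wnt target, had a different time course. Preterm controls held 50.7, 49.3, 44.9 and 36.0 CPM and the LPS 16h animals 35.9, 36.2, 44.1 and 47.5 CPM, which overlapped. At 5 days after LPS the values were 25.1, 16.6 and 22.1 CPM, after LPS + Beta-Ac 27.0, 26.4 and 27.6 CPM, and at term 30.7 and 31.1 CPM. The LPS 5d, LPS + Beta-Ac and term values did not overlap each other, in this order from low to high, and all lay below the preterm and LPS 16h values.

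LEF1 fell at 5 days after LPS by 1.09 on the log2 scale (SE 0.16, adjusted p = 0.00055). Without LPS 5d animal 240, which had the lowest level, the fold change was -0.93 (adjusted p = 0.0044), just under 2-fold. After LPS + Beta-Ac it was -0.73 (SE 0.16, adjusted p = 0.0046), and at term -0.54 (SE 0.18, adjusted p = 0.11; adjusted p = 0.040 without preterm control 209). At 16 hours it was -0.14 (95% confidence interval -0.45 to 0.16, adjusted p = 0.47). The direct difference between 16 hours and 5 days was 0.95 (SE 0.16, adjusted p = 0.00024), and it reached 2-fold without LPS 16h animal 026 (1.01), LPS 16h animal 029 (1.00) or LPS 5d animal 239 (1.08).

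Every LPS + Beta-Ac animal held more LEF1 than every LPS 5d animal, as was so for 6.33% of all genes. The difference of 0.36 (SE 0.17) did not pass over all genes (adjusted p = 1). LPS 5d animals were also below both term controls in LEF1, with a log2 fold change of -0.56 (SE 0.19) that did not pass (adjusted p = 0.28). Of 8 proliferation genes, 7 were called lower at 5 days after LPS, with a summed level of 78.0 to 86.9 CPM against 150.1 to 208.2 CPM in preterm controls, and 0 of 8 were called at 16 hours. At term 6 of the 8 were called lower, with a summed level of 65.4 to 82.3 CPM, and after LPS + Beta-Ac 3 of the 8, with 97.3 to 104.6 CPM. Among all genes, 2.23% were called lower at 5 days after LPS, 0.953% at term and 2.44% after LPS + Beta-Ac. At 16 hours 6.07% were called lower and 8.3% higher. The part of the proliferation genes in the LEF1 results was not tested.

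AXIN2 (ENSMMUG00000060015), a scaffold of the beta-catenin destruction complex that is induced by the pathway it restrains, did not follow LEF1. Preterm controls held 114, 80.7, 102 and 110 CPM. The levels were 88.3, 68.2, 84.6 and 72.5 CPM at 16 hours after LPS, 123, 108 and 111 CPM at 5 days after LPS, 107, 102 and 101 CPM after LPS + Beta-Ac, and 75.7 and 89.3 CPM at term. Both 5-day groups lay above all LPS 16h and term animals, whereas the preterm controls overlapped the LPS 16h and the term values.

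At 5 days after LPS the log2 fold change of AXIN2 against preterm controls was 0.17 (95% confidence interval -0.10 to 0.45, adjusted p = 0.42). At 16 hours AXIN2 was 0.37 lower on the log2 scale (log2 fold change -0.37, SE 0.12, adjusted p = 0.023), but its adjusted p was 0.45 with days of gestation as a covariate, 0.11 in a fit of these 2 groups alone, and 0.062 to 0.086 without LPS 16h animal 029 or 038 or preterm control 092 or 209. The difference between 16 hours and 5 days, -0.54 (SE 0.13, adjusted p = 0.0040), kept an adjusted p below 0.05 in all 15 alternatives. Against term controls AXIN2 was 0.47 higher at 5 days after LPS (SE 0.15, adjusted p = 0.28) and 0.33 higher after LPS + Beta-Ac (SE 0.15, adjusted p = 0.35), and neither passed.

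SFRP1 (ENSMMUG00000019082), a secreted Frizzled-related protein that binds Wnt ligands, was low in the LPS + Beta-Ac and term animals. The preterm controls held 13.7, 12.5, 15.3 and 19.7 CPM and the LPS 16h animals 14.4, 12.8, 12.5 and 14.6 CPM. The LPS + Beta-Ac animals held 9.67, 8.36 and 9.40 CPM, and the term controls 6.84 and 7.43 CPM. The LPS 5d animals were spread over 12.2, 27.6 and 10.3 CPM, and animal 240 held the highest level of all 16. The LPS + Beta-Ac and term values were thus below all preterm, LPS 16h and LPS 5d animals.

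None of the differences of SFRP1 passed. The log2 fold change was -1.07 at term (SE 0.29, adjusted p = 0.055) and -0.72 after LPS + Beta-Ac (SE 0.26, adjusted p = 0.070), both against preterm controls. LPS + Beta-Ac was 0.72 below LPS alone (log2 fold change -0.72, SE 0.28, adjusted p = 0.77), and LPS at 5 days was 1.08 above term (SE 0.31, adjusted p = 0.21). Of the 12 fibroblast markers, 2 (the collagen genes COL1A1 and COL1A2) were called lower after LPS + Beta-Ac against preterm controls. At term 3 were called lower (COL1A1, COL1A2 and COL3A1). Among all genes, 2.44% and 0.953% were called lower in these comparisons, and 4.05% and 1.11% higher. The other fibroblast markers were not called in either. The fold change was below 0 for 11 of the 12 after LPS + Beta-Ac and for 12 at term. The part of these markers in the SFRP1 values was not tested.

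WIF1 (ENSMMUG00000016887), a secreted protein that sequesters Wnt ligands, varied widely within groups. Preterm controls spanned 9.63, 12.7, 3.19 and 17.4 CPM, and the LPS 16h animals 4.62, 10.7, 8.09 and 4.51 CPM. The values were 8.63, 2.88 and 4.03 CPM after LPS at 5 days, 4.18, 6.37 and 2.93 CPM after LPS + Beta-Ac, and 4.12 and 1.45 CPM at term. Preterm control 113, at 3.19 CPM, lay below every LPS 16h animal and within the ranges of the other 3 groups.

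The log2 fold change of WIF1 against preterm controls was -1.86 at term (SE 0.64, adjusted p = 0.12) and -1.08 after LPS + Beta-Ac (95% confidence interval -2.28 to 0.12, adjusted p = 0.22), and neither passed. Without preterm control 113 these were -2.35 (adjusted p = 0.044) and -1.57 (adjusted p = 0.047), and WIF1 was then called in both. In the other direction, the value at term was -1.13 (adjusted p = 0.55) without term control 201, and the value after LPS + Beta-Ac was -0.77 (adjusted p = 0.41) without preterm control 209.

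DKK3 (ENSMMUG00000022862), a secreted member of the Dickkopf family, had the largest fall of the 10 genes at 16 hours. The preterm controls held 359, 356, 388 and 302 CPM, and the LPS 16h animals 117, 153, 58.9 and 103 CPM. At 5 days the animals held 219.7, 306 and 230.5 CPM after LPS and 178, 180.3 and 214 CPM after LPS + Beta-Ac, and the term controls held 268 and 231 CPM. Each LPS 16h animal was below all 12 others, and each LPS + Beta-Ac animal was below all LPS 5d, term and preterm animals.

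The log2 fold change of DKK3 at 16 hours was -1.77 against preterm controls (SE 0.22, adjusted p = 1.48e-05) and -1.29 against LPS at 5 days (SE 0.23, adjusted p = 0.00060), and both were called in all alternatives run. Against preterm controls it was -0.88 after LPS + Beta-Ac (SE 0.23, adjusted p = 0.018), -0.49 after LPS at 5 days (95% confidence interval -0.99 to 0.01, adjusted p = 0.19) and -0.49 at term (95% confidence interval -1.06 to 0.08, adjusted p = 0.35). The value after LPS + Beta-Ac had an adjusted p of 0.068 without LPS + Beta-Ac animal 248 and 0.074 without LPS + Beta-Ac animal 249. LPS + Beta-Ac lay 0.39 below LPS alone (log2 fold change -0.39, 95% confidence interval -0.93 to 0.14), which did not pass (adjusted p = 1).

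**Figure D2:**
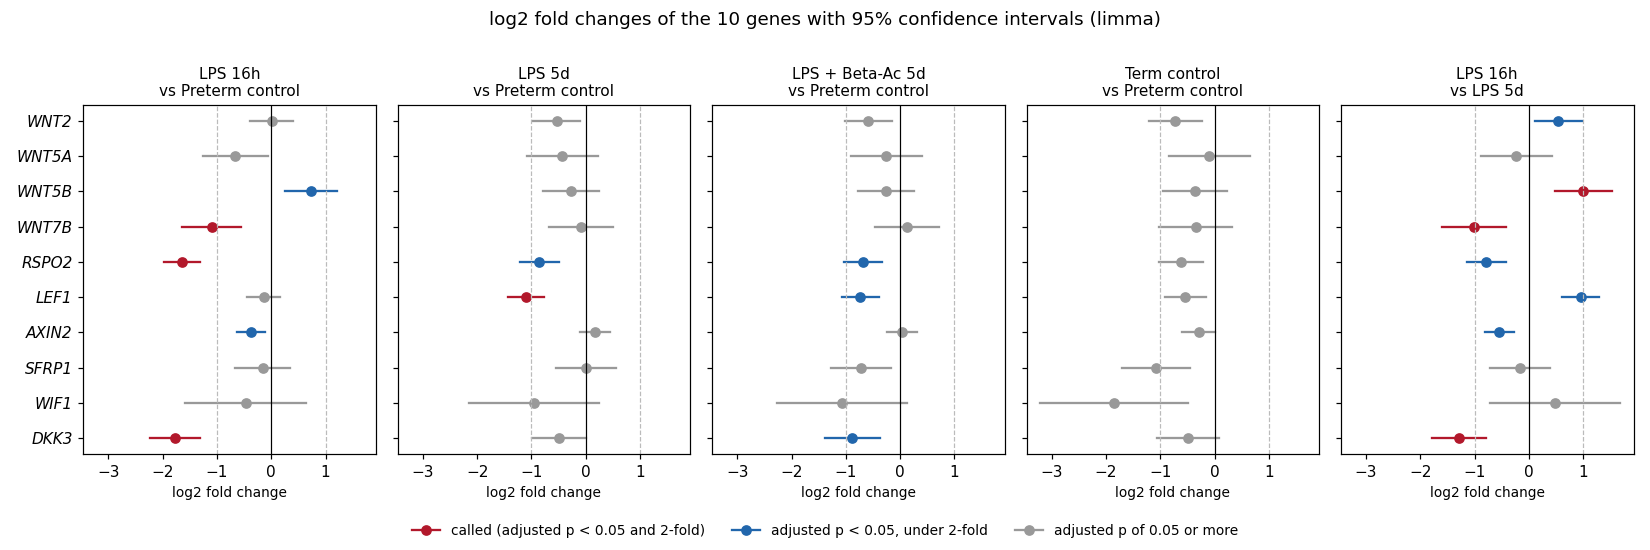
log2 fold changes of the 10 genes (points) with 95% confidence intervals (lines) in 5 comparisons, with dashed lines at 2-fold, red for called genes, blue for an adjusted p below 0.05 at less than 2-fold, and grey for the rest. The called genes were RSPO2, DKK3 and WNT7B at 16 hours and LEF1 at 5 days against preterm controls, and WNT5B, WNT7B and DKK3 between 16 hours and 5 days.

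Markers of other cells moved with these groups. At 16 hours after LPS, 10 of 12 myeloid markers were called higher, with a summed level of 2342 to 3071 CPM against 145.4 to 283.7 CPM in preterm controls. In the same comparison, 3 of 12 fibroblast markers (TCF21, LUM and MFAP4) and 2 of 8 endothelial markers (KDR and EMCN) were called lower, and the summed fibroblast markers ranged from 9722 to 13910 CPM against 14130 to 22780 CPM. Among all genes, 6.07% were called lower and 8.3% higher at 16 hours. The fibroblast sums were 9430 to 15810 CPM after LPS at 5 days, 9562 to 12540 CPM after LPS + Beta-Ac and 9016 to 9708 CPM at term. Most of these sums was COL1A1, COL1A2 and COL3A1, which were not called at 16 hours. Of the 12 fibroblast markers, 10 had a fold change below 0 at 16 hours and 2 above it, with a median of -0.76. The part of the myeloid, fibroblast and endothelial markers in the results for RSPO2, WNT2 and DKK3 was not tested. Of 11 tested epithelial markers, 1 was called higher at 16 hours against preterm controls (ABCA3) and 1 lower (CLDN18), and 3 were called lower at 16 hours than at 5 days after LPS (NKX2-1, CLDN18 and AGER) and 0 higher. Among all genes, 6.61% were called lower and 8.02% higher at 16 hours than at 5 days. The summed level of the epithelial markers was 6202 to 8798 CPM in preterm controls, 6795 to 14090 CPM at 16 hours and 11580 to 17310 CPM at 5 days after LPS. Most of it was SFTPB and SFTPC, with means of 2791 and 2942 CPM in preterm controls and 4233 and 4640 CPM at 16 hours. Against preterm controls, 6 of the 11 had a fold change below 0 at 16 hours (median -0.17) and 1 at 5 days after LPS (median 0.63). The part of the epithelial markers in the WNT7B results was not tested.

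Of 69 other genes of the Wnt pathway on the list used here, 57 were tested, and the role of each was taken from general knowledge. At 16 hours 13 of the 57 were called lower and 1, the Frizzled receptor FZD5, higher, against 6.07% lower and 8.3% higher among all genes. At 5 days 4 were called lower after LPS (2.23% of all genes) and 5 after LPS + Beta-Ac (2.44% of all genes), and 2 were lower at term (0.953% of all genes). In these 3 comparisons 0 were called higher, against 2.6%, 4.05% and 1.11% of all genes. Between the LPS groups, FZD10, ROR2 and DKK1 were called higher at 16 hours than at 5 days, and WNT4, WNT7A, WNT11, FZD9, LGR5, NOTUM and FRZB lower, against 8.02% higher and 6.61% lower among all genes. The median log2 fold changes of the 57 were -0.46, -0.11, -0.27 and -0.17, in the order 16 hours, LPS at 5 days, LPS + Beta-Ac and term. Between LPS + Beta-Ac and LPS alone, 0 of the 57 were called, and 1 was called without LPS 5d animal 239.

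**Figure D3:**
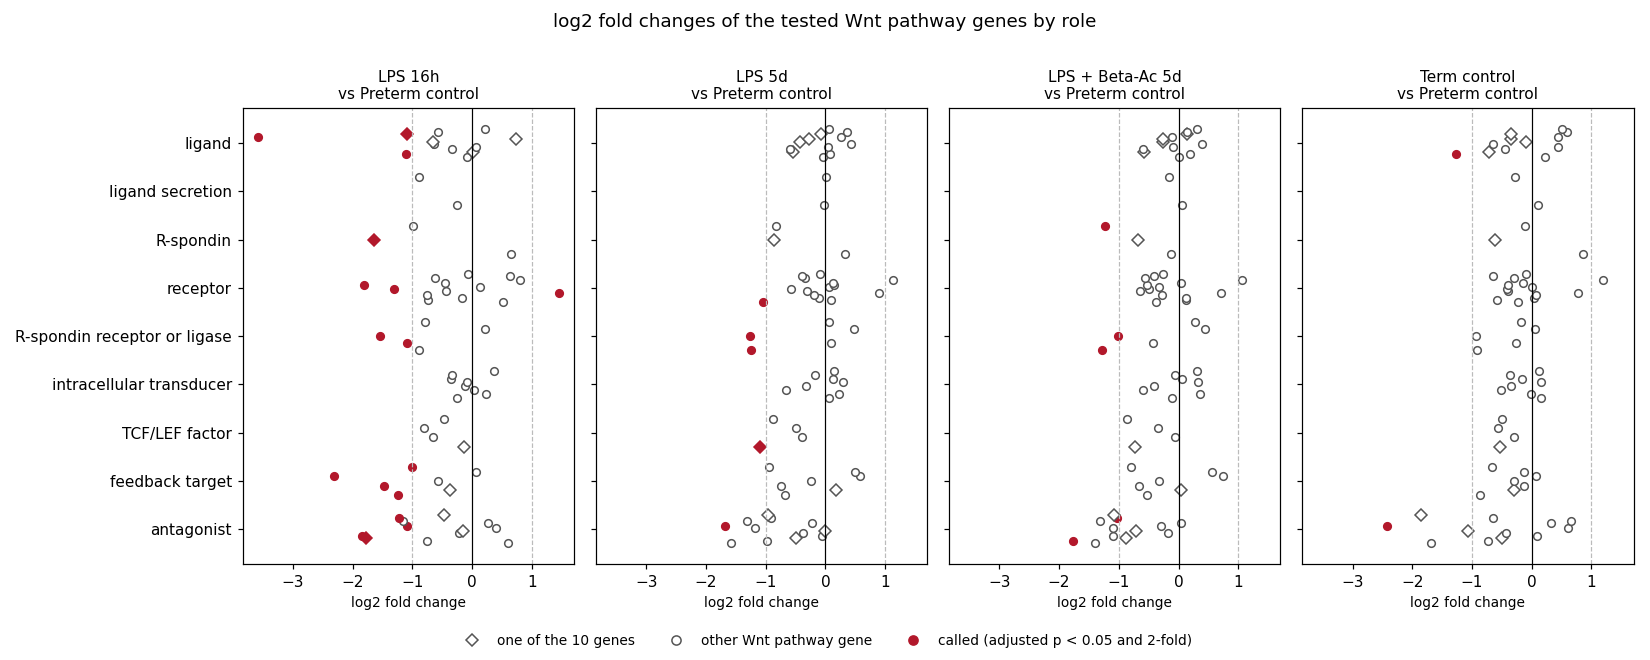
log2 fold changes against preterm controls of the 67 tested Wnt pathway genes (the 10 genes as diamonds, the other 57 as circles), grouped by role, with called genes filled in red and dashed lines at 2-fold. Called genes lay to the left of 0 in all 4 comparisons, except FZD5 at 16 hours.

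LGR4, LGR5 and LGR6 are the receptors of the R-spondins. LGR4 fell at 5 days after LPS from 50.3, 53.6, 49.4 and 39.9 CPM in preterm controls to 20.2, 18.2 and 22.8 CPM. It was 18.9, 18.0 and 22.3 CPM after LPS + Beta-Ac, 33.8, 20.4, 24.5 and 27.1 CPM at 16 hours, and 23.6 and 27.5 CPM at term, so that every preterm control exceeded every other animal. The log2 fold change was -1.24 after LPS (adjusted p = 0.00037) and -1.29 after LPS + Beta-Ac (adjusted p = 0.00011), called in all 15 alternatives of each. At 16 hours it was -0.88 (adjusted p = 0.00030) and at term -0.91 (adjusted p = 0.015), both under 2-fold.

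LGR6 was called lower at 16 hours (-1.54 on the log2 scale, adjusted p = 0.00057), after LPS at 5 days (-1.26, adjusted p = 0.013) and after LPS + Beta-Ac (-1.02, adjusted p = 0.033). The LGR6 call after LPS was lost without LPS 5d animal 239 (adjusted p = 0.062), and the call after LPS + Beta-Ac was lost in 7 of 15 alternatives, among them those without LPS + Beta-Ac animal 248, 249 or 255 and those without preterm control 092, 101 or 209. LGR5, a low count gene, was called lower at 16 hours (-1.08, adjusted p = 0.0072), with 15 to 23 reads per library. It was under 2-fold without LPS 16h animal 035 or preterm control 092 or 209, and -0.61 with days of gestation as a covariate (adjusted p = 0.25). RSPO3, a second R-spondin, was called lower after LPS + Beta-Ac (-1.23, adjusted p = 0.014), with 26 to 47 reads per library. That call was lost without LPS + Beta-Ac animal 248 (-0.97, adjusted p = 0.085) and with days of gestation as a covariate (-0.96, adjusted p = 0.13). At 16 hours RSPO3 was -0.99 (adjusted p = 0.014). It was called there in 6 of 16 alternatives, the one with no fold minimum among them, and its adjusted p reached 0.26 in another. RSPO1 was not called in any comparison.

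**Figure D4:**
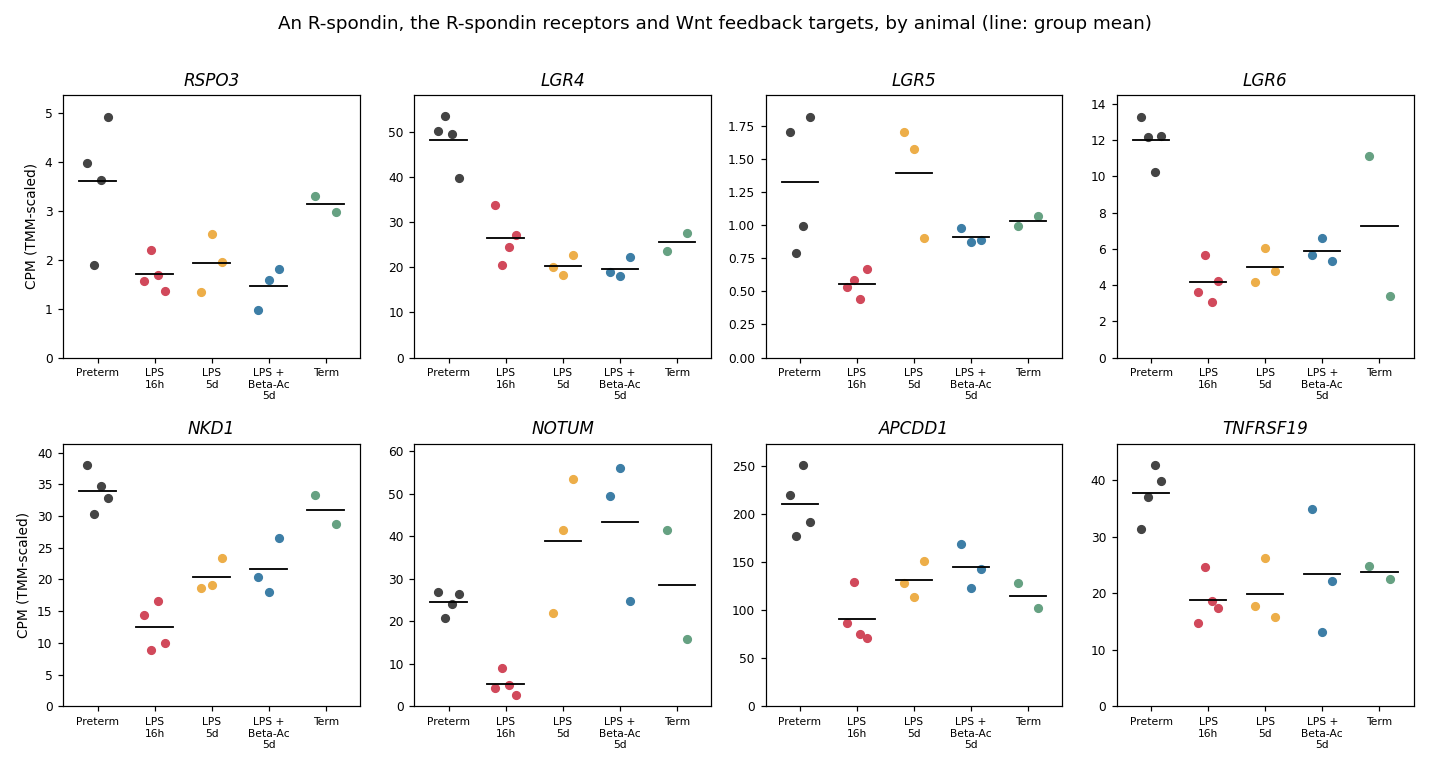
TMM-scaled CPM (linear axes from 0) of RSPO3, the R-spondin receptors LGR4, LGR5 and LGR6, and the feedback targets NKD1, NOTUM, APCDD1 and TNFRSF19 in each animal, with a line at each group mean. LGR4 was higher in all 4 preterm controls than in any other animal, and NOTUM was lower in all 4 LPS 16h animals than in any other animal.

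Of the 7 feedback targets on the list, AXIN2 included, 6 had a fold change below 0 at 16 hours and 4 were called lower, with a median of -1.01 on the log2 scale. Among all genes, 6.07% were called lower and the median was -0.09. The 4 were NOTUM, NKD1, APCDD1 and TNFRSF19. NOTUM, an enzyme that inactivates Wnt ligands by removing their lipid, went from 26.8, 20.8, 24.0 and 26.5 CPM in preterm controls to 4.37, 9.04, 5.04 and 2.76 CPM at 16 hours (log2 fold change -2.32, SE 0.39, adjusted p = 0.00031). It was 21.9, 41.6 and 53.4 CPM at 5 days after LPS, and the difference between the 2 LPS groups was -2.89 (SE 0.42, adjusted p = 0.00011).

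NKD1, an inhibitor that acts on Dishevelled, fell by 1.48 on the log2 scale at 16 hours (SE 0.19, adjusted p = 1.75e-05). It was -0.74 at 5 days after LPS (adjusted p = 0.022) and -0.66 after LPS + Beta-Ac (adjusted p = 0.033). Under the alternatives the adjusted p of these last 2 values reached 0.089 and 0.18. APCDD1, a membrane inhibitor of Wnt receptors, fell by 1.24 at 16 hours (SE 0.18, adjusted p = 6.71e-05). NOTUM, NKD1 and APCDD1 were called at 16 hours in all 16 alternatives. TNFRSF19 was at the 2-fold edge (-1.01, adjusted p = 0.0050) and lost its call in 7 of 16, among them those without LPS 16h animal 026 or 038 or preterm control 113 or 209. At 5 days and at term 0 of the 7 targets were called against preterm controls. Among all genes, 2.23% were called lower after LPS at 5 days, 2.44% after LPS + Beta-Ac and 0.953% at term. The shares called higher were 2.6%, 4.05% and 1.11%.

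Among the other ligands, WNT7A had the largest fold change at 16 hours. It was measured at 7.15, 4.95, 7.13 and 8.55 CPM in preterm controls and at 0.391, 0.960, 0.373 and 0.436 CPM (11 to 36 reads) in the LPS 16h animals, a log2 fold change of -3.59 (SE 0.32, adjusted p = 4.40e-07). WNT7A was back at 9.40, 7.29 and 7.97 CPM at 5 days after LPS. WNT11 was called lower at 16 hours (-1.11, adjusted p = 0.00021; -0.96 without LPS 16h animal 038) and at term (-1.28, adjusted p = 0.0076; adjusted p = 0.095 without term control 200). WNT4 was called lower at 16 hours than at 5 days (-1.06, adjusted p = 0.0027), and was under 2-fold without LPS 16h animal 026 or 038 or LPS 5d animal 242.

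Among the receptors, FZD5 was called higher at 16 hours (1.45, adjusted p = 0.00029) and FZD7 (-1.32, adjusted p = 8.85e-05) and FZD9 (-1.80, adjusted p = 0.00081) lower. FZD9 was a low count gene, with 10 to 39 reads per LPS 16h library and 34 to 55 per preterm library. FZD10 was called lower at 5 days after LPS (-1.05, adjusted p = 0.0073), under 2-fold without preterm control 101 or LPS 5d animal 240, and was higher at 16 hours than at 5 days (1.57, adjusted p = 9.68e-05). ROR2, a receptor of WNT5A, was also higher at 16 hours than at 5 days (1.02, adjusted p = 0.00013), under 2-fold with library totals alone, with days of gestation as a covariate, or without LPS 16h animal 029 or 035. The 8 tested intracellular transducers held 0 called genes in all 8 comparisons. Among all genes, 0% to 8.3% were called in a given direction, depending on the comparison. For 8 genes, 0 calls is close to those shares.

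Of 12 tested antagonists, 11 are secreted proteins and KREMEN1 is a membrane receptor of Dickkopf proteins. Against preterm controls, DKK3, FRZB, SOSTDC1 and SFRP4 were called lower at 16 hours, and SFRP4 at 5 days after LPS. DKK2 and SOSTDC1 were called lower after LPS + Beta-Ac, and SFRP4 at term. In this order of comparisons, 6.07%, 2.23%, 2.44% and 0.953% of all genes were called lower. In the same order, 0 of the 12 were called higher, against 8.3%, 2.6%, 4.05% and 1.11% of all genes. The fold change was below 0 for 11 of the 12 after LPS at 5 days and for 11 of the 12 after LPS + Beta-Ac, with medians of -0.94 and -1.05 on the log2 scale. The medians of all genes were -0.0017 and -0.01. At 16 hours 9 of the 12 were below 0 (median -0.62, against -0.09 for all genes). At term 8 of the 12 were below 0 (median -0.57, against -0.0089 for all genes). The 12 include SOST, which held 0 or 1 reads in every 5-day animal. SOST passed the low-count filter only through 1 preterm control (25 reads) and 1 term control (37 reads). Its fold change below 0 in both 5-day comparisons was thus largely fixed in advance. The place of SOST in the counts and medians of the 12 at 5 days therefore carries no information. SFRP4, a Frizzled-related protein like SFRP1, was -1.68 after LPS at 5 days (adjusted p = 0.0043) and -2.42 at term (adjusted p = 0.0049; 0.055 without term control 200). DKK2 was -1.77 after LPS + Beta-Ac (adjusted p = 0.0040). FRZB was -1.84 at 16 hours (adjusted p = 0.0061), and SOSTDC1 was -1.23 at 16 hours (adjusted p = 0.0012) and -1.03 after LPS + Beta-Ac, the last under 2-fold without preterm control 092 or 113 and with an adjusted p of 0.086 without LPS + Beta-Ac animal 249. SFRP4 at 16 hours was -1.08 (adjusted p = 0.012), under 2-fold without LPS 16h animal 035 (-0.97) and -0.67 with days of gestation as a covariate (adjusted p = 0.27).

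Against LPS at 5 days, FRZB was lower at 16 hours (-1.78, adjusted p = 0.013) and DKK1 was higher (2.18, adjusted p = 0.014), with DKK1 values of 2.99, 2.21, 6.15 and 20.7 CPM against 0.798, 0.998 and 1.85 CPM. The DKK1 call was lost without LPS 5d animal 239 (1.94, adjusted p = 0.061) and with days of gestation as a covariate (2.05, adjusted p = 0.069). Without LPS 16h animal 038, which held the highest level, the log2 fold change was 1.54 (adjusted p = 0.025). Against term controls, WNT11 was higher after LPS at 5 days (1.35, adjusted p = 0.040) and WNT11 and SFRP4 were higher after LPS + Beta-Ac (1.47 and 2.13, adjusted p = 0.013 and 0.027). Both WNT11 calls and the SFRP4 call were lost without either term control, with adjusted p values from 0.053 to 0.17. The WNT11 call after LPS was lost without any 1 of the 5 animals compared, and the SFRP4 call also without LPS + Beta-Ac animal 248 or 255.

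The genes whose log2 CPM followed single genes of the 10 most closely over the 16 animals were sought for DKK3, WNT7B and RSPO2, taken by the number of comparisons in which they were called and then by the size of the change. They were IFTAP, TBXA2R and CACNA1D for DKK3 (Pearson r of 0.97, 0.96 and 0.96), C8H8orf82, PAEP and CLEC11A for WNT7B (0.93 each), and TBX4, PXYLP1 and FGF1 for RSPO2 (0.95 each). TBX4 is also on the fibroblast marker list. Among the 10 genes, RSPO2 and DKK3 were the most alike pair (r = 0.82) and WNT5B and RSPO2 the most opposed (r = -0.66). These are descriptions over 16 animals that share group structure and library depth.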

How the data were processed

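RNA-seq of fetal lung from 16 animals was analysed, with groups and animal numbers taken from the labels. Per the labels and the article, the authors extracted RNA from frozen lung (the article names a column kit, the labels a phenol reagent), selected poly(A) RNA, read 75 bp from both ends of each fragment, quantified the reads against Mmul_10 with kallisto, summed them to genes with tximport, and compared groups with DESeq2. The authors deposited a whole-number read count for each gene in each animal, without normalization. The annotation release, the tool versions, the rounding and any sequencing batch are not stated in these sources.

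Symbols were matched by Ensembl ID (17256 of 22515 IDs have one). Genes with at least 0.371 CPM in 2 animals and 15 counts in total were tested (19199). Counts were TMM-scaled (trimming 30% of log ratios and 5% of mean values) and fitted as log2 CPM (prior count 2) with limma 3.58.1 in R 4.3.3, with trend and robust options and 1 mean per group over all 16 animals. A call needs a Benjamini-Hochberg adjusted p below 0.05 and 2-fold. The plan held count models, but the table's layout (bare-number column names, carriage-return line ends) could not be read by the automatic unit check, so the unit was recorded as other and limma was used. All p values are two-sided, and fold changes of low genes are shrunk by the prior count. The p values set a group difference against the spread between animals within groups, pooled over the 5 groups and moderated across genes by limma. The labels do not say that the animals of a group were handled apart, so whether the animals are independent in handling is not known.

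The 10 genes and the pathway and marker lists were chosen with earlier results of these data known. All 10 genes are named. Other pathway genes were to be named when called with groups that did not overlap, at most 3 per direction and comparison, and the further called ones were named after their values were seen. Libraries within groups differed by more than sampling noise. The steps were tested on simulated data. Alternatives were median-of-ratios scaling, library totals alone, no filter, a prior count of 0.5, limma-voom, only the groups compared, no fold minimum, days of gestation as a covariate (without term controls), and leaving out each animal.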

Additional observations from a re-analysis of the deposited data

Results flagged for a closer look

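The effect of LPS differed between 16 hours and 5 days for 7 of the 10 genes by limma's direct comparison of these groups (adjusted p below 0.05), which equals the difference of their effects against the shared preterm controls. Among all genes, 19.4% were higher and 15.6% lower at 16 hours by the same measure. WNT5B was higher at 16 hours by 1.00 on the log2 scale, LEF1 by 0.95 and WNT2 by 0.54. WNT2 passed narrowly (adjusted p = 0.0495), with an adjusted p of up to 0.20 under the alternatives. The value was -1.29 for DKK3, -1.02 for WNT7B, -0.79 for RSPO2 and -0.54 for AXIN2. By adjusted p alone against preterm controls, RSPO2 was lower at both times and LEF1 at 5 days. At 16 hours WNT7B, DKK3 and AXIN2 were lower and WNT5B higher by this measure, and WNT2 passed at neither time. The LPS 16h libraries were deeper than all others, and the part of depth in these differences was not tested.

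The rule used to find animals apart from their group marked none for the 10 genes in the 2 groups of 4 animals, the size examined (20 sets of values). With 4 values per set such a rule can miss an unusual animal, so nothing is concluded from this. For WIF1, preterm control 113 held 3.19 CPM, against 9.63, 12.7 and 17.4 CPM in the other preterm controls. Leaving out preterm control 113 turned the WIF1 results at term and after LPS + Beta-Ac, both against preterm controls, into calls.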

How the results depend on the processing

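For the 10 genes, 38 fold changes given above were recomputed 550 times. The direction held in all 550, and 525 kept their side of the threshold. With no fold minimum the direction could not turn, because that alternative reuses the main fit. Most of the 38 were given because of an unadjusted p below 0.05 in these data, which favours a kept direction. With no fold minimum, 5 genes passed at 16 hours against preterm controls, 2 at 5 days after LPS, 3 after LPS + Beta-Ac and 7 between 16 hours and 5 days. Leaving out 1 animal gave 3 called genes at 16 hours in every case, 0 to 1 at 5 days after LPS, 0 to 1 after LPS + Beta-Ac, 0 to 1 at term, and 1 to 4 between 16 hours and 5 days (1 without LPS 16h animal 035), and 0 in every case in the other 3 comparisons. The remaining 42 pairs of gene and comparison, given no fold change above, were not called under any alternative, and the sign turned in 23 of them. The 44 fold changes of other pathway genes kept their direction in all 661 recomputed values. The same limits hold there, as most of the 44 were given because they were called. With library totals alone, the median of all genes shifted to -0.29 at 16 hours against preterm controls and to -0.22 against LPS at 5 days. edgeR and DESeq2 fits were planned but not run here. No paired analysis was possible because the groups share no animal numbers. Where a value changed, the cause was not tested. The 2 term controls, the 3 animals per 5-day group and, for WNT5B, the 37 to 213 reads per library limit the precision.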
